A study of Aspergillus cristatus with 9 samples.

Results

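Genes of amino acid metabolism were followed in the golden flower fungus *Aspergillus cristatus* grown with and without *Panax* roots. The set was drawn by the KEGG pathway numbers in the authors' gene table. A gene entered when it was listed under the synthesis of arginine, lysine, the branched-chain or the aromatic amino acids, or under the metabolism of histidine, of serine, glycine and threonine, or of cysteine and methionine. It was left out when it was also listed under aminoacyl-tRNA synthesis, glycolysis, the citrate cycle, glyoxylate, fatty acid degradation, glycerophospholipid or glutathione metabolism. This gave 230 of the 10227 genes in the table, from 281 before the second condition. The enzyme numbers in the table met the name of the set only in part. They assign 124 genes to steps of amino acid synthesis, covering 56 enzymes, 8 to the methyl cycle and methionine salvage, and 12 to nitrogen supply and transamination. Enzymes are named here by these numbers, and the table describes 50 of the 124 by an enzyme name and 74 as hypothetical proteins. The other 86 genes belong to degradation and side reactions, among them 24 genes with the number of choline dehydrogenase and 11 with that of sarcosine oxidase. The table describes 2 of these 24, SI65_06218 and SI65_00004, as glucose oxidase.

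RNA was sequenced from strain JLU in 9 libraries, 3 of each group. All groups started from PDA (potato dextrose agar) plates kept for 10 days. EcRS and EcSQ were fungus harvested after 1 week at 28 °C on sterilized roots of *Panax ginseng* and of *Panax notoginseng*, and EcCK was fungus that had met no roots. The labels give every library as mycelium and as 1 week old, while the methods of the study describe the EcCK material as spores from plates, so that root contact cannot be told apart from medium, growth stage and age. No source says whether libraries of the same group are from separate cultures, and the p-values therefore measure only the spread between these libraries, which may be technical.

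Fungi make all protein amino acids from intermediates of glycolysis, the citrate cycle and the pentose phosphate pathway, with nitrogen drawn mainly from glutamate and glutamine. The aromatic amino acids arise from the shikimate pathway, in which a fused protein, the AROM polypeptide, carries the middle steps. Valine and isoleucine are made in the mitochondrion by a shared row of enzymes, leucine by a side branch of it, and lysine by the aminoadipate route that is typical of fungi. In yeast and in *Aspergillus nidulans* a bZIP factor, Gcn4 or CpcA, raises many of these genes together when an amino acid runs short.

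Levels are given as FPKM, which scale the fragments of a gene by its length and by the mapped total of its library, in the order of the replicates 1 to 3. Differences are log2 fold changes ± the standard error from the quasi-likelihood test of edgeR, with p-values adjusted over all genes tested. A gene was tested when its FPKM averaged at least 1 in the 6 libraries compared, and it was called when its adjusted p was at most 0.05 and its log2 fold change at least 1 in size. Of the 230 genes 27 had a mean under 1 FPKM over the 9 libraries, and none stood at 0 in all of them. Gene identifiers are those of the table, which numbers the contigs and names no genome build, and positions are given as listed there.

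The libraries held between 45891944 and 61627866 estimated counts in listed genes. Estimated counts outside the listed genes made up 12.1% to 14.1% of the mapped total in EcCK, 23.1% to 26.9% in EcRS and 12.1% to 14.9% in EcSQ. FPKM are scaled by that total, and over all 8925 genes tested the median log2 fold change of EcRS over EcCK was -0.96. With TMM factors, which equalize the bulk of the genes, it was -0.11. Lists are therefore also read against the median of all genes, and it is said where a fall was not called with TMM factors. EcSQ replicate 3 stood apart from its group, with a mean r of 0.815 over genes with the other EcSQ libraries and an r of 0.925 with the mean of EcRS. Among 202 genes of the set with a mean of at least 1 FPKM in EcSQ it was the lowest EcSQ library in 175. In RNA from whole samples, fewer cells of a type and less RNA per cell cannot be told apart.

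Of the 230 genes 202 were tested in EcRS against EcCK, and 24 rose and 87 fell, while 91 did not pass. Over all genes tested 12.8% rose and 47.6% fell, so the shares in the set, 11.9% and 43.1%, were near this background. With TMM factors 60 were higher and 59 lower, against 26.4% and 31.4% of all genes. All 24 rises were called under both scalings, 28 of the 87 falls were lost with TMM factors, and no gene changed direction between the calls. A further 36 genes that did not pass were called higher with TMM factors, and genes given below as not passing may be among them. Genes of synthesis and genes of degradation and side reactions were then counted separately. Of 111 tested genes of synthesis 19 rose and 34 fell, with a median log2 fold change of -0.26, which is 0.70 above the median of all genes. Every gene of the set has a KEGG pathway, and the 3123 tested genes with one had a higher median, -0.73. Of these 14.2% rose and 43.2% fell. With TMM factors 44 were higher and 24 lower, and with DESeq2 46 and 24. Of 72 tested genes of degradation and side reactions 4 rose and 46 fell, with a median of -1.71, and with TMM factors 9 were higher and 33 lower. In 42 genes of the set the 3 EcRS libraries all stood above the 3 EcCK libraries and in 110 all below, where 18.3% and 54.3% of all genes did so.

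**Figure D1:**
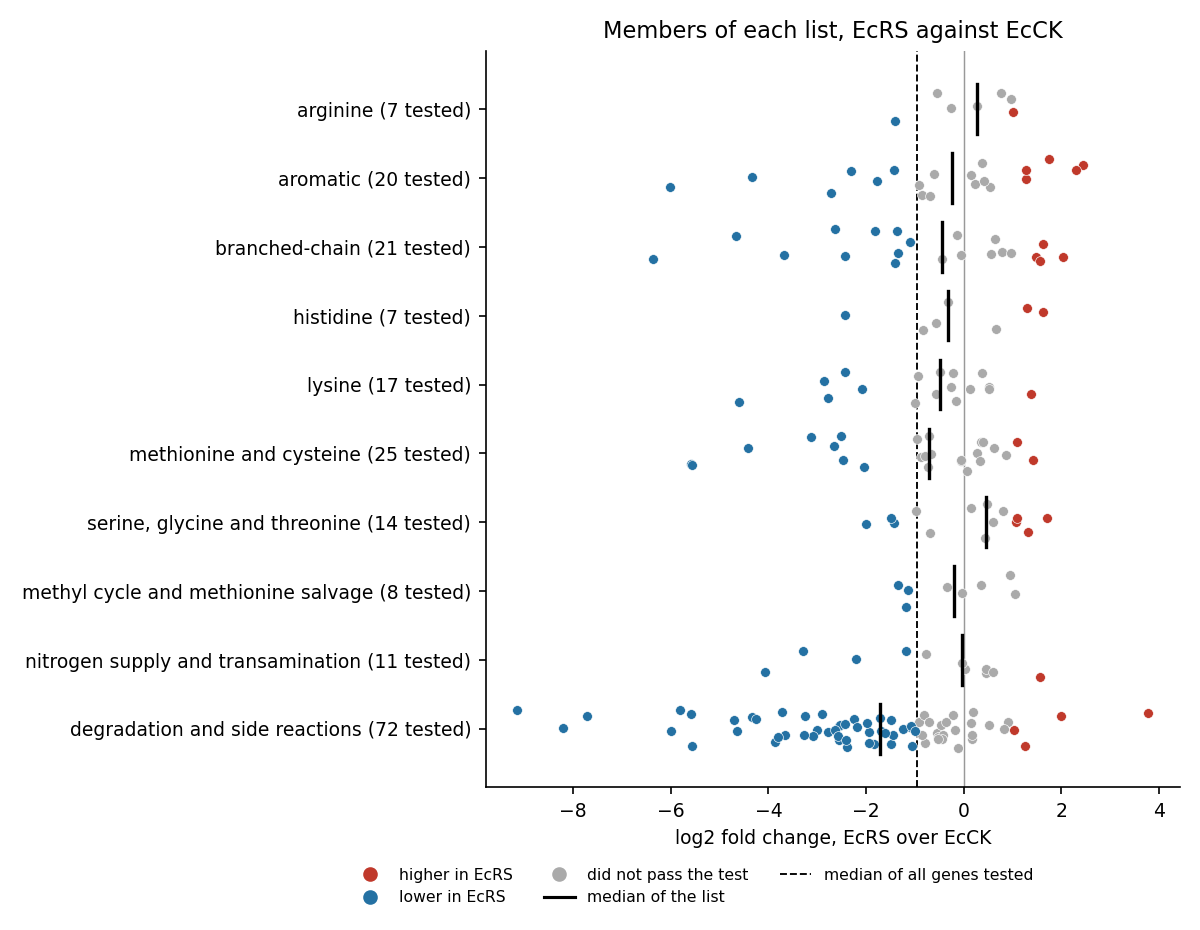
Log2 fold change of EcRS over EcCK on the x axis for each tested gene, by list on the y axis; each point is a gene, coloured by its call, the black bar is the median of its list and the dashed line the median of all genes tested, -0.96. The bars of the synthesis lists lie to the right of the dashed line, and that of degradation and side reactions, -1.71, to its left.

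The steps from chorismate to tryptophan held the largest rises among the genes of synthesis. Tryptophan is made from chorismate by anthranilate synthase, anthranilate phosphoribosyltransferase and further steps that end in tryptophan synthase. SI65_00259 (anthranilate phosphoribosyltransferase by its number, described as a hypothetical protein, contig 1 from 695591 to 696963 on the minus strand) was at 68.7, 96.1 and 79.5 FPKM in EcCK, 424, 419.7 and 492 in EcRS and 771, 1195 and 268 in EcSQ. No EcCK library reached the lowest library on either root. Its log2 fold change in EcRS was 2.45 ± 0.27 (adjusted p = 7.69e-05). SI65_08444 (tryptophan synthase, contig 13 from 148704 to 151028 on the plus strand) was at 51.2, 44.5 and 68.8 FPKM in EcCK, 224, 271 and 321 in EcRS and 356, 708 and 459.7 in EcSQ. Here too the root libraries lay above all EcCK libraries, and the log2 fold change in EcRS was 2.31 ± 0.30 (adjusted p = 0.000172). The glutamine-binding component 2 of anthranilate synthase, SI65_07684, rose by 1.76 ± 0.26 on the log2 scale, from 127 ± 14.8 to 429 ± 31 FPKM (mean ± SD, n = 3). Component 1, SI65_00483, which carries the chorismate site, had 98.1 ± 8.92 FPKM in EcCK and 143 ± 18.2 in EcRS, a log2 difference of 0.54 ± 0.23 that did not pass (adjusted p = 0.0673). With TMM factors component 1 was called higher too, at 1.36 (adjusted p = 0.000695).

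The entry to the shikimate pathway is DAHP synthase, of which the table lists 4 genes. The tyrosine-inhibited enzyme SI65_07568 rose, with 199, 192 and 227 FPKM in EcCK, 435, 487 and 584 in EcRS and 541, 828 and 399 in EcSQ, and a log2 fold change in EcRS of 1.28 ± 0.26 (adjusted p = 0.00206). It was the most abundant gene of the aromatic list in EcCK, and every EcCK library lay below every root library. The phenylalanine-inhibited enzyme SI65_09273 had 37.4, 32.6 and 35.7 FPKM in EcCK, 47.4, 48.1 and 46.1 in EcRS and 66.5, 60.3 and 31.7 in EcSQ, and its log2 difference of 0.42 ± 0.22 did not pass (adjusted p = 0.111). TMM factors called this gene higher, at 1.23 (adjusted p = 0.00141). SI65_09276, described as a hypothetical protein and lying 7795 bases away on contig 17, fell: 8.72, 13.7 and 29.7 FPKM in EcCK became 0.969, 0.733 and 0.871 in EcRS, a log2 fold change of -4.34 ± 0.48 (adjusted p = 7.88e-05), and EcSQ had 15, 3.96 and 1.85. The fourth gene, SI65_00925, had 38.7, 62.3 and 83.4 FPKM in EcCK, 66.8, 85.1 and 86.8 in EcRS and 187, 288 and 34.1 in EcSQ, with a log2 difference of 0.37 ± 0.31 (adjusted p = 0.316). EcRS and EcCK overlapped in this gene, which TMM factors called higher, at 1.25 (adjusted p = 0.00173).

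Of the later shikimate steps, 1 rose. The AROM polypeptide SI65_05216 had 22.7, 26.5 and 31 FPKM in EcCK, 12.5, 13.3 and 18.9 in EcRS and 34.9, 38.3 and 10.8 in EcSQ. All EcRS libraries lay below EcCK, but the log2 difference of -0.85 ± 0.26 was short of the threshold (adjusted p = 0.0185) and with TMM factors it was -0.01. Without EcRS replicate 3 it was called, at -1.05. Chorismate synthase SI65_01093, the last shikimate step, rose by 1.28 ± 0.45 on the log2 scale (adjusted p = 0.0313), from 33.1 ± 23 to 80.5 ± 13 FPKM. That call was lost without any 1 library other than EcCK replicate 3, at 0.96 to 1.40. Prephenate dehydrogenase SI65_07230, on the branch to tyrosine, had 30.3 ± 8.48 FPKM in EcCK and 16.2 ± 3.46 in EcRS (log2 difference -0.90 ± 0.29, adjusted p = 0.0214). It was called lower without EcCK replicate 1, at -1.07, and without EcRS replicate 1, at -1.09. SI65_01158, numbered as prephenate dehydratase on the branch to phenylalanine, had 5.56 ± 2.08 and 6.16 ± 0.731 FPKM (log2 difference 0.15 ± 0.36, adjusted p = 0.733) and was not called either. TMM factors called SI65_01158 higher, at 1.025 (adjusted p = 0.00739).

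**Figure D2:**
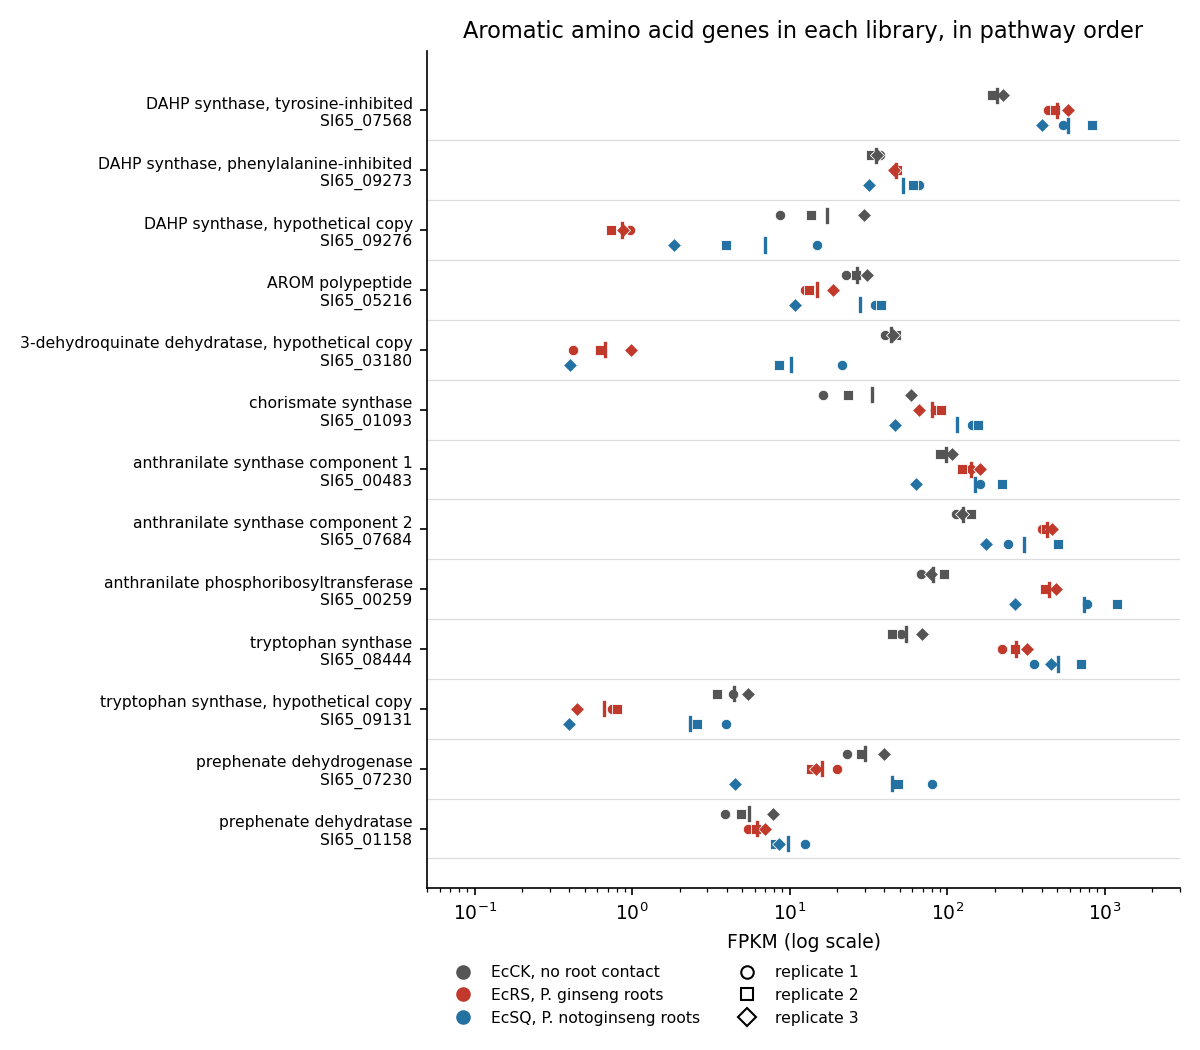
FPKM on a log x axis of 13 genes of aromatic amino acid synthesis in the 9 libraries, in pathway order from top to bottom; grey marks EcCK, red EcRS and blue EcSQ, the symbol gives the replicate and the bar the group mean. SI65_00259 and SI65_08444 lie higher on both roots than in EcCK, whereas the hypothetical copies SI65_09276, SI65_03180 and SI65_09131 lie lower in EcRS.

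The largest fall of the aromatic list was in SI65_03180, a hypothetical protein with the number of 3-dehydroquinate dehydratase, an activity that the AROM polypeptide also carries. It stood at 40.2, 47.3 and 45.1 FPKM in EcCK, 0.421, 0.623 and 0.985 in EcRS and 21.4, 8.62 and 0.403 in EcSQ, and its log2 fold change in EcRS was -6.01 ± 0.40 (adjusted p = 1.39e-05). EcCK was high and even, every EcRS library was under 1 FPKM, and EcSQ ran from the middle of this range to the level of EcRS. A shorter gene for tryptophan synthase, SI65_09131, of 675 coding bases against 2169 in SI65_08444, fell from 4.39, 3.44 and 5.47 to 0.74, 0.806 and 0.446 FPKM (log2 fold change -2.71 ± 0.43, adjusted p = 0.000545; EcSQ 3.97, 2.58 and 0.4). SI65_08787, with the number of 3-dehydroquinate synthase, fell from 3.1, 3.67 and 4.44 to 0.637, 0.565 and 1.04 FPKM (log2 fold change -2.32 ± 0.37, adjusted p = 0.000611; EcSQ 5.72, 4.37 and 0.404). In neither did the EcRS and EcCK libraries overlap. SI65_00932, the other gene numbered as anthranilate phosphoribosyltransferase, did not pass: it had 4.04, 7.75 and 17 FPKM in EcCK, 5.53, 7.18 and 6.29 in EcRS and 28.8, 14.1 and 18.2 in EcSQ, with a log2 difference of -0.60 ± 0.49 (adjusted p = 0.3). In all, 5 of 20 tested genes of the aromatic list rose and 6 fell, beside 12.8% and 47.6% of all genes. With TMM factors 10 were higher and 4 lower, beside 26.4% and 31.4% of all genes, SI65_01335 and SI65_06471 being the falls no longer called. The FPKM summed over the 23 genes were 775, 885 and 1082 in EcCK, 1907, 2028 and 2307 in EcRS and 2784, 4175 and 1568 in EcSQ, so that every root library lay above every EcCK library.

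The quinate genes share substrates with the shikimate pathway, since quinate is broken down through 3-dehydroquinate. Together on contig 10 lie the quinate repressor SI65_07866, the catabolic dehydroquinase SI65_07868 and quinate dehydrogenase SI65_07870. By their numbers SI65_07866 is a 3-dehydroquinate synthase and SI65_07868 a 3-dehydroquinate dehydratase. Both are therefore counted in the aromatic list and among the genes of synthesis. SI65_07866 had 3.52, 5.71 and 17.5 FPKM in EcCK, 4.95, 5.61 and 6.06 in EcRS and 14.5, 16.3 and 5.44 in EcSQ, and its log2 difference of -0.68 ± 0.53 did not pass (adjusted p = 0.273), but it was called lower without EcCK replicate 1, at -1.06. SI65_07868 was under the filter, with a mean of 0.545 ± 0.307 FPKM in EcCK and 0.128 ± 0.115 in EcRS. SI65_07870 had 1.1, 1.48 and 2.23 FPKM in EcCK, 1.53, 2.82 and 4.24 in EcRS and 6.95, 4.82 and 0.726 in EcSQ (log2 difference 0.83 ± 0.48, adjusted p = 0.147). It was called higher with TMM factors, at 1.70 (adjusted p = 0.00688). Another quinate dehydrogenase, SI65_10278 on contig 29, fell from 2.42, 3.25 and 3.33 to 0.774, 0.254 and 0.612 FPKM (log2 fold change -2.42 ± 0.49, adjusted p = 0.00215; EcSQ 2.32, 0.35 and 1.3).

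Leucine genes were the main rises among the branched-chain list. Both 3-isopropylmalate dehydrogenases with an enzyme name rose, and so did 3-isopropylmalate dehydratase before them. The dehydratase SI65_08087 (contig 11 from 443860 to 446178 on the plus strand) had 48.2, 64.7 and 81.6 FPKM in EcCK, 205, 222 and 178 in EcRS and 175, 319 and 375 in EcSQ, with a log2 fold change in EcRS of 1.64 ± 0.29 (adjusted p = 0.000936). The dehydrogenase B SI65_00111 had 10.5, 9.5 and 34.9 FPKM in EcCK, 74.3, 68.4 and 83.9 in EcRS and 74.9, 61.2 and 7.43 in EcSQ (log2 fold change 2.05 ± 0.49, adjusted p = 0.00552). The dehydrogenase A SI65_08300 had 20.3, 23.6 and 46.1 FPKM in EcCK, 98.1, 68.9 and 84.1 in EcRS and 101, 58.5 and 39.7 in EcSQ (log2 fold change 1.48 ± 0.35, adjusted p = 0.00496). In all 3 genes EcRS lay above EcCK without overlap, and EcSQ replicate 3 was the lowest EcSQ library of both dehydrogenases but the highest of the dehydratase. A hypothetical protein with the same dehydrogenase number, SI65_04401, went the other way, from 2.8, 2.85 and 4.02 to 0.32, 0.191 and 0.232 FPKM (log2 fold change -3.68 ± 0.40, adjusted p = 7.22e-05; EcSQ 4.37, 1.33 and 0.378).

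The first leucine step, 2-isopropylmalate synthase, did not rise. SI65_05333, which carries that name, had 46, 33 and 36.7 FPKM in EcCK, 27, 31.3 and 26.6 in EcRS and 46, 33.7 and 29.3 in EcSQ (log2 difference -0.45 ± 0.24, adjusted p = 0.126). SI65_03848, a hypothetical protein with the same number, fell from 47.4, 88.5 and 88.1 to 15, 16.4 and 10.4 FPKM, with 114, 38.9 and 8.92 in EcSQ (log2 fold change -2.42 ± 0.33, adjusted p = 0.000248). Its EcSQ libraries ran from above to below all EcCK libraries.

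The steps shared by valine and isoleucine gave 1 rise. Ketol-acid reductoisomerase SI65_09762, the second of these steps, rose by 1.57 ± 0.36 on the log2 scale (adjusted p = 0.00397), from 78 ± 37.1 to 232 ± 35.4 FPKM. The subunits of acetolactate synthase, the enzyme before it, lay higher in every EcRS library but were not called. The small subunit SI65_03249 had 105, 118 and 164 FPKM in EcCK, 236, 240.5 and 194 in EcRS and 185, 227 and 353 in EcSQ (log2 difference 0.79 ± 0.26, adjusted p = 0.0243). The catalytic subunit SI65_05794 had 18.9, 20.5 and 29.1 FPKM in EcCK, 37.6, 45.1 and 52.6 in EcRS and 68, 80.7 and 86.4 in EcSQ (log2 difference 0.98 ± 0.27, adjusted p = 0.0103). Without EcCK replicate 3 both were called, at 1.00 and 1.19, and the catalytic subunit also without EcRS replicate 1, at 1.10. TMM factors called both subunits higher, at 1.66 and 1.83. SI65_00621, of 162 coding bases and with the same number, fell from 5.85, 8.32 and 36.4 to 2.48, 1.74 and 3.72 FPKM (log2 fold change -2.64 ± 0.74, adjusted p = 0.0115; EcSQ 47.6, 8.79 and 1.35). Dihydroxy-acid dehydratase, the third step, has 8 genes, of which 5 were tested and 3 fell, 1 of them with TMM factors. That gene was SI65_04517, at 33.7, 12.2 and 13.6 FPKM in EcCK, 0.982, 0.446 and 0.887 in EcRS and 8.46, 3.59 and 0.338 in EcSQ (log2 fold change -4.67 ± 0.53, adjusted p = 9.27e-05).

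Branched-chain aminotransferases, which add the amino group in the last step, had the widest range of log2 fold changes between genes of 1 enzyme among the 28 enzymes of synthesis with at least 2 tested genes. The cytosolic enzyme SI65_03016 had 108, 113 and 98.9 FPKM in EcCK, 104, 82.8 and 105 in EcRS and 102, 98.4 and 18.9 in EcSQ, with a log2 difference of -0.13 ± 0.23 (adjusted p = 0.635). SI65_07228, a hypothetical protein, was at 61.4, 47.8 and 27.6 FPKM in EcCK and at 0.7, 0.577 and 0.372 in EcRS, with 27, 9.77 and 0.223 in EcSQ. This log2 fold change, -6.36 ± 0.45 (adjusted p = 1.61e-05), was the largest fall among the genes of synthesis tested. Another gene, SI65_06467, had 4.5, 3.61 and 4.64 FPKM in EcCK, 5.82, 5.72 and 7.24 in EcRS and 19, 10.3 and 0.978 in EcSQ and did not pass (log2 difference 0.56 ± 0.31, adjusted p = 0.137). Of the 21 tested branched-chain genes 4 rose and 10 fell, the shares over all genes being 12.8% and 47.6%. With TMM factors 8 were higher and 5 lower, the shares being 26.4% and 31.4%. The summed FPKM of the list nevertheless went from 768 ± 146 in EcCK to 1082 ± 60.7 in EcRS (mean ± SD, n = 3), without overlap, and were 1282 ± 203 in EcSQ.

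Arginine synthesis has 7 genes, all of them with an enzyme name. Argininosuccinate synthase SI65_09500, which joins citrulline and aspartate, was by far the most abundant, with 463, 554 and 639 FPKM in EcCK, 422, 511 and 446 in EcRS and 616, 794 and 840.3 in EcSQ (log2 difference in EcRS -0.26 ± 0.27, adjusted p = 0.402). EcRS and EcCK overlapped. Acetylornithine aminotransferase SI65_08527 rose from 13.5, 12.1 and 18 to 27.9, 29.5 and 30.6 FPKM, with 60.1, 64 and 22.9 in EcSQ (log2 fold change 1.01 ± 0.25, adjusted p = 0.00568). This rise sat on the fold threshold and was lost without EcCK replicate 1, EcCK replicate 2 or EcRS replicate 3, at 0.96, 0.90 and 0.98. N-acetylglutamate synthase SI65_08109, which makes the first intermediate, fell from 16.8, 33.1 and 40 to 10.2, 12.4 and 11.5 FPKM (log2 fold change -1.40 ± 0.34, adjusted p = 0.00534; EcSQ 43, 45.1 and 12.7), a fall that TMM factors did not call. The bifunctional ArgJ protein SI65_09113, which recycles the acetyl group, had 15.9 ± 1.78 FPKM in EcCK and 27 ± 1.13 in EcRS (log2 difference 0.76 ± 0.23, adjusted p = 0.0147). The fused kinase and reductase arg-6, SI65_04128, had 40 ± 13.6 and 78.9 ± 9.89 FPKM (log2 difference 0.98 ± 0.30, adjusted p = 0.0184), and it was called with the replicate number as a block, at 1.03, and without EcCK replicate 3 or EcRS replicate 1, at 1.24 and 1.08. SI65_08527 and SI65_08109 were the only genes of the list called, where 12.8% of all genes rose and 47.6% fell. The median of the list was 1.23 above that of all genes. With TMM factors 4 of the 7 genes were higher and none lower, against 26.4% and 31.4% of all genes.

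Histidine synthesis has 7 genes for 7 enzymes in the table, and its members diverged within the route. ATP phosphoribosyltransferase SI65_07614, the first step, rose from 18.6, 15.7 and 21.5 to 52.6, 34.5 and 51.4 FPKM, with 56.4, 31 and 6.66 in EcSQ (log2 fold change 1.31 ± 0.27, adjusted p = 0.00235). ProFAR isomerase SI65_03114, a hypothetical protein named here by its enzyme number, rose from 58.5, 58.2 and 51.1 to 187, 163 and 167 FPKM, with 84.4, 106 and 229 in EcSQ (log2 fold change 1.62 ± 0.23, adjusted p = 0.000271). In both genes EcRS and EcCK stood clear of each other, and the EcSQ libraries of SI65_07614 ran from below EcCK to above EcRS. Imidazoleglycerol-phosphate dehydratase SI65_03466, a later step, fell from 26.4, 26.8 and 44.2 to 7.1, 5.15 and 5.79 FPKM (log2 fold change -2.43 ± 0.33, adjusted p = 0.000242; EcSQ 40.5, 19.3 and 1.35). The other 4 genes did not pass, and over all genes 12.8% rose and 47.6% fell. With TMM factors 3 genes of the list were higher and 1 lower, against 26.4% and 31.4% of all genes.

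Lysine synthesis by the aminoadipate route had 1 rise and 5 falls among 17 genes tested, and 5 in each direction with TMM factors. Over all genes 12.8% rose and 47.6% fell, and with TMM factors 26.4% and 31.4%. Homoisocitrate dehydrogenase SI65_01312 was the rise, with 17.2, 22.6 and 35.8 FPKM in EcCK, 74.2, 68.1 and 55.6 in EcRS and 64.1, 79.7 and 51.1 in EcSQ (log2 fold change 1.39 ± 0.31, adjusted p = 0.00399). No EcCK library overlapped the root libraries. SI65_06796, a hypothetical protein with the number of the saccharopine dehydrogenase that releases lysine in the last step, had the largest fall, from 25.8, 23.4 and 25.9 to 0.735, 0.691 and 1.63 FPKM, with 21.3, 7.62 and 0.22 in EcSQ (log2 fold change -4.61 ± 0.42, adjusted p = 3.50e-05). Another gene of that number, SI65_09742, was under the filter. The saccharopine reductase SI65_00557, of the step before, had 68.6 ± 35.5 FPKM in EcCK and 97.9 ± 1.99 in EcRS (log2 difference 0.51 ± 0.35, adjusted p = 0.219), and was called higher without EcCK replicate 3, at 1.02.

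The remaining falls of the lysine list were also in hypothetical proteins, beside other genes of the same number. SI65_00617, an aminoadipate aminotransferase by its number, fell from 115, 189 and 428 to 61.1, 51.6 and 59 FPKM, with 252, 119 and 8.14 in EcSQ (log2 fold change -2.09 ± 0.46, adjusted p = 0.00321), while SI65_04035 had 21.6, 29 and 36.7 FPKM in EcCK, 32, 36.5 and 44.7 in EcRS and 52.8, 49.9 and 20.1 in EcSQ (log2 difference 0.38 ± 0.28, adjusted p = 0.25). Of 3 homoaconitase genes SI65_04992 fell, from 24.6, 17.4 and 14.9 to 1.69, 3.92 and 2.66 FPKM (log2 fold change -2.78 ± 0.37, adjusted p = 0.000223; EcSQ 17.2, 5.27 and 2.17). The mitochondrial homoaconitase SI65_03498, which carries the name, had 11.1, 11.2 and 16.9 FPKM in EcCK, 10.1, 9.87 and 13 in EcRS and 22.1, 30.5 and 9.93 in EcSQ (log2 difference -0.25 ± 0.27, adjusted p = 0.438), and SI65_03500 had 4.26, 6.63 and 15.4 FPKM in EcCK, 8.14, 7.49 and 7.91 in EcRS and 22.9, 21 and 9.57 in EcSQ (log2 difference -0.16 ± 0.46, adjusted p = 0.765). Neither of these separated EcRS from EcCK. Among the aconitase 2 type enzymes, which can hydrate homocitrate, SI65_06061 fell from 27.6, 39.4 and 40.4 to 5.75, 6.26 and 7.77 FPKM (log2 fold change -2.44 ± 0.27, adjusted p = 8.23e-05; EcSQ 19.7, 19.8 and 1.6), whereas SI65_01079 had 22, 18.1 and 18.6 FPKM in EcCK, 16.1, 14.5 and 11.7 in EcRS and 26.6, 25.2 and 8.3 in EcSQ (log2 difference -0.48 ± 0.24, adjusted p = 0.103). SI65_03250 had 38.1, 45.2 and 69.2 FPKM in EcCK, 32.7, 35.9 and 34.2 in EcRS and 54.9, 38.3 and 20.1 in EcSQ (log2 difference -0.57 ± 0.28, adjusted p = 0.0956).

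Aminoadipate reductase, the large enzyme in the middle of the route, was represented by 5 genes. SI65_08568 had the highest mean of them in EcRS and in EcSQ, with 156, 137 and 85.7 FPKM in EcCK, 167, 179 and 194 in EcRS and 295, 452 and 115 in EcSQ, and did not pass (log2 difference 0.51 ± 0.30, adjusted p = 0.152). SI65_00592, of 495 coding bases, fell from 15.4, 14.2 and 23.8 to 2.8, 2.06 and 2.46 FPKM (log2 fold change -2.85 ± 0.37, adjusted p = 0.000182; EcSQ 23.5, 9.3 and 0.778). SI65_07355, the gene that carries the enzyme name, had 24.1 ± 13.1 FPKM in EcCK and 26.4 ± 3.77 in EcRS. The summed level of the lysine list was 959 ± 133 FPKM in EcCK, 692 ± 25.8 in EcRS and 1145 ± 274 in EcSQ, and the EcRS libraries lay below the other groups.

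**Figure D3:**
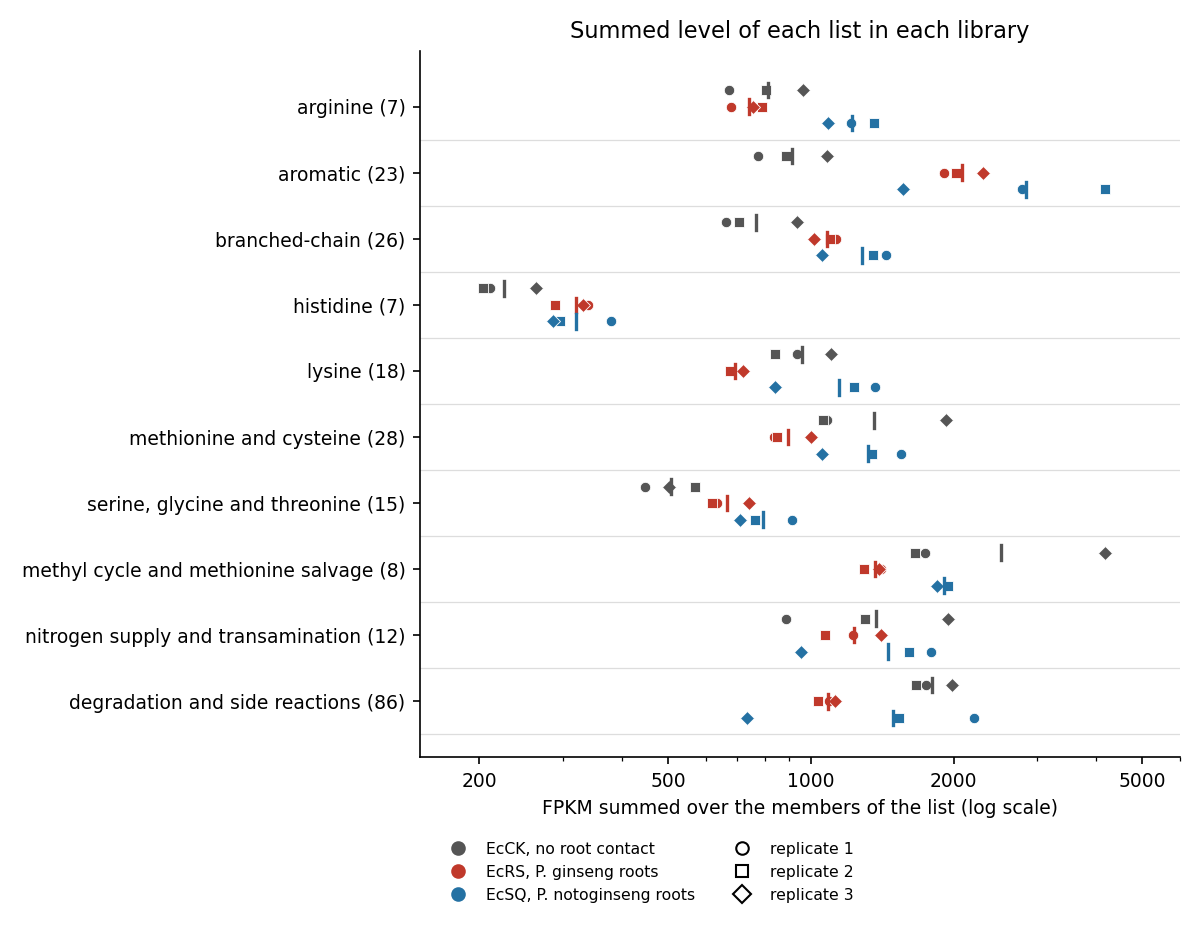
FPKM summed over the genes of each list, on a log x axis, in each library; grey marks EcCK, red EcRS and blue EcSQ, the symbol gives the replicate and the bar the group mean, and the number of genes stands beside each list. The aromatic sums run from 775 to 1082 in EcCK and from 1907 to 2307 in EcRS, and the sums of degradation and side reactions from 1666 to 1981 and from 1037 to 1127.

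On the way to threonine 3 steps rose. Aspartate-semialdehyde dehydrogenase SI65_06357, which feeds threonine, methionine and isoleucine, rose from 42, 24.3 and 37.2 to 87, 78.6 and 94.5 FPKM, with 86.6, 57.8 and 61.6 in EcSQ (log2 fold change 1.33 ± 0.27, adjusted p = 0.00235). Homoserine kinase SI65_01146 rose by 1.08 ± 0.32 on the log2 scale (adjusted p = 0.0146), from 16.5 ± 6.41 to 34.8 ± 5.76 FPKM, and was not called without EcCK replicate 1, EcCK replicate 2 or EcRS replicate 3, at 0.91, 0.93 and 0.94. Threonine synthase SI65_07378, the last step, rose from 7.06, 8.97 and 33.5 to 48.8, 56 and 57.6 FPKM, with 49.9, 52.4 and 34 in EcSQ (log2 fold change 1.71 ± 0.55, adjusted p = 0.0208). In these 3 genes no EcRS library overlapped EcCK, although EcCK replicate 3 stood well above the other EcCK libraries in SI65_07378. That call was lost without EcCK replicate 2, at 1.42, and without EcRS replicate 3, at 1.67.

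Other genes numbered as threonine synthase did not rise. SI65_05087, the most abundant of them, had 119, 255 and 53.6 FPKM in EcCK, 195, 184 and 217 in EcRS and 194, 231 and 395 in EcSQ, and its log2 difference of 0.48 ± 0.48 did not pass (adjusted p = 0.395), but was called without EcCK replicate 2, at 1.21. SI65_09491 fell from 9.89, 7.66 and 9.81 to 4.36, 3.35 and 2.01 FPKM (log2 fold change -1.49 ± 0.39, adjusted p = 0.00827; EcSQ 16.8, 2.96 and 6.9), which TMM factors did not call. The 3 EcCK libraries of SI65_05087 differed among themselves by more than the groups did.

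In serine synthesis, SI65_03499, numbered as phosphoserine aminotransferase, rose from 23.2, 22.8 and 37.8 to 57.2, 54.1 and 68.9 FPKM, with 111, 74.4 and 19.2 in EcSQ (log2 fold change 1.10 ± 0.28, adjusted p = 0.00726). This call was at the threshold too and was lost without EcCK replicate 1, EcCK replicate 2 or EcRS replicate 3, at 0.99, 0.98 and 0.99. Another gene of that number, SI65_09772, had 2.51, 3.47 and 7.96 FPKM in EcCK, 6.14, 6.31 and 6.49 in EcRS and 18.9, 10.8 and 5.01 in EcSQ (log2 difference 0.44 ± 0.45, adjusted p = 0.403), and was called without EcCK replicate 3, at 1.07. Phosphoglycerate dehydrogenase SI65_01172, the step before, had 85.2 ± 23.3 FPKM in EcCK and 129 ± 13.4 in EcRS, and SI65_06328, numbered as phosphoserine phosphatase, the step after, had 86.9 ± 8.99 and 44.3 ± 7. The log2 differences were 0.60 ± 0.27 and -0.97 ± 0.24, neither called, though the latter was called lower without EcCK replicate 3 or EcRS replicate 3, at -1.05 and -1.10. Threonine aldolases, which split threonine into glycine and acetaldehyde, fell in 2 of 3 tested genes. SI65_02222 went from 14.6, 15.6 and 33.1 to 5.71, 5.2 and 4.96 FPKM (log2 fold change -2.00 ± 0.38, adjusted p = 0.00146; EcSQ 39.3, 14.7 and 0.714) and SI65_05498 from 26.3, 29.9 and 26.2 to 9.06, 8.08 and 13.6 (log2 fold change -1.43 ± 0.28, adjusted p = 0.00183; EcSQ 58.1, 43.7 and 2). TMM factors called the former fall only. SI65_00457 had 1.84, 2.89 and 2.71 FPKM in EcCK, 4.65, 4.47 and 3.97 in EcRS and 9.11, 9.34 and 2.63 in EcSQ and did not pass (log2 difference 0.81 ± 0.34, adjusted p = 0.058). Over the list of serine, glycine and threonine 4 of 14 tested genes rose and 3 fell, beside 12.8% and 47.6% of all genes. Its median was 1.42 above that of all genes, the largest such gap of the 10 lists. With TMM factors 7 were higher and 1 lower, beside 26.4% and 31.4% of all genes.

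Of 25 tested methionine and cysteine genes 2 rose and 8 fell, where 12.8% and 47.6% of all genes did. With TMM factors 7 were higher and 8 lower, against 26.4% and 31.4% of all genes. Methionine synthase SI65_09463, the most abundant gene of the list, had 545, 553 and 1191 FPKM in EcCK, 395, 408 and 530.3 in EcRS and 614, 679.8 and 723 in EcSQ. Its EcRS libraries lay below EcCK, of which replicate 3 was far the highest, but the log2 difference of -0.78 ± 0.39 did not pass (adjusted p = 0.1). Another gene with this number, SI65_05961, fell from 102, 34 and 30.4 to 9.11, 9.12 and 11 FPKM (log2 fold change -2.51 ± 0.47, adjusted p = 0.00146; EcSQ 29.1, 14.7 and 4.53). Homocysteine S-methyltransferase, which forms methionine by another route, is listed for SI65_01905 and SI65_01977. Where a library held at least 1 FPKM, the values of both differed by at most 3.22%. Their sequences were not available, so whether reads can be assigned to either gene was not tested. SI65_01905 was at 3.6, 5.11 and 10.3 FPKM in EcCK, 0.147, 0.0185 and 0.19 in EcRS and 20, 4.29 and 0.209 in EcSQ (log2 fold change -5.58 ± 0.71, adjusted p = 0.000166). SI65_01977 had 3.58, 5.28 and 10 FPKM in EcCK, 0.128, 0.0185 and 0.216 in EcRS and 19.8, 4.33 and 0.209 in EcSQ (log2 fold change -5.57 ± 0.72, adjusted p = 0.00018). EcSQ ran from well above EcCK to the level of EcRS.

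The entry of sulfur gave no rise in a gene with an enzyme name. Homoserine O-acetyltransferase SI65_02971, which activates homoserine, fell from 21, 17.9 and 20.4 to 2.34, 2.06 and 2.35 FPKM, with 29.2, 8.72 and 0.257 in EcSQ (log2 fold change -3.13 ± 0.27, adjusted p = 2.70e-05). Another gene of that number, SI65_03803, a hypothetical protein, had 22.5, 20 and 28.6 FPKM in EcCK, 28, 28.5 and 29.2 in EcRS and 33.5, 25.5 and 16.2 in EcSQ (log2 difference 0.27 ± 0.23, adjusted p = 0.33). O-acetylhomoserine sulfhydrylase SI65_04895, which adds sulfide, had 48.4, 47.7 and 104 FPKM in EcCK, 61, 59.1 and 73.4 in EcRS and 151, 128 and 70.8 in EcSQ (log2 difference -0.05 ± 0.34, adjusted p = 0.912), and SI65_06779 had 17.8, 20.4 and 31.6 FPKM in EcCK, 11.1, 14.3 and 18.3 in EcRS and 51.4, 50.6 and 27.5 in EcSQ (log2 difference -0.67 ± 0.31, adjusted p = 0.0776). SI65_06563 of the same number fell from 30.2, 27.1 and 29.4 to 5.92, 5.22 and 4.46 FPKM (log2 fold change -2.48 ± 0.24, adjusted p = 4.27e-05; EcSQ 28.7, 13.4 and 2.58).

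Transsulfuration, which moves sulfur between cysteine and homocysteine, is listed for many hypothetical proteins. Among genes numbered as cystathionine beta-lyase, SI65_06120 fell from 23.8, 28.8 and 41.2 to 1.22, 1.21 and 1.95 FPKM, with 39.4, 18.4 and 1.12 in EcSQ (log2 fold change -4.42 ± 0.35, adjusted p = 2.11e-05). SI65_02419 had 46.1, 41.1 and 56.6 FPKM in EcCK, 70.9, 72.7 and 77.9 in EcRS and 47, 56.5 and 44.9 in EcSQ (log2 difference 0.62 ± 0.23, adjusted p = 0.0395), and SI65_06081 had 2.67, 2.58 and 8.04 FPKM in EcCK, 3.58, 3.96 and 5.29 in EcRS and 19.4, 11.8 and 1.42 in EcSQ (log2 difference -0.05 ± 0.49, adjusted p = 0.936). Only the first of these 3 was called. The 2 rises of the whole list were SI65_03270, numbered as cystathionine gamma-synthase and 549 coding bases long, and SI65_06473, numbered as cysteine synthase. SI65_03270 went from 7.57, 12.5 and 7.68 to 23.6, 19.9 and 15.5 FPKM (log2 fold change 1.09 ± 0.34, adjusted p = 0.0196; EcSQ 38.8, 15.6 and 14.6), and was not called without EcCK replicate 1 (0.97), EcCK replicate 3 (0.97), EcRS replicate 1 (0.94) or EcRS replicate 2 (1.08). SI65_06473 went from 2.13, 1.11 and 1.3 to 4.39, 4.07 and 3.8 FPKM (log2 fold change 1.43 ± 0.39, adjusted p = 0.00992; EcSQ 5.06, 5.86 and 2.19), and was not called without EcCK replicate 2, at 1.25.

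The methyl cycle, which carries methyl groups from methionine to methylation reactions and back, had 3 falls among 8 genes, none of them called with TMM factors. Over all genes 47.6% fell, and 31.4% with TMM factors, so these falls were not particular to the list. Adenosylhomocysteinase SI65_02676, which clears the product of methylation, was the most abundant of all 230 genes in EcCK, with 944, 921 and 2645 FPKM there, 538, 559 and 687 in EcRS and 671, 788 and 1127 in EcSQ. EcCK replicate 3 was far above the other EcCK libraries. Its log2 fold change was -1.34 ± 0.46 (adjusted p = 0.0273), but -0.65 without EcCK replicate 3, and the call was also lost without any EcRS library, at -1.27, -1.29 and -1.46. A hypothetical protein of the same number, SI65_02675, lies 308 bases away and had 6.38, 5.98 and 9.89 FPKM in EcCK, 13.2, 9.88 and 5.28 in EcRS and 8.75, 5.88 and 1.2 in EcSQ (log2 difference 0.35 ± 0.40, adjusted p = 0.457). SI65_04975, numbered as S-adenosylmethionine decarboxylase, which leads to polyamines, fell from 113, 148 and 140.1 to 66.7, 61.8 and 47.6 FPKM, with 112, 99.2 and 21.6 in EcSQ (log2 fold change -1.19 ± 0.25, adjusted p = 0.00275). S-adenosylmethionine synthetase SI65_02810 fell, with a log2 fold change of -1.13 ± 0.43 (adjusted p = 0.0428), from 482 ± 314 to 220.1 ± 20.5 FPKM, and this was not called with the replicate number as a block (-0.94), without EcCK replicate 3 (-0.45) or without any EcRS library (-1.08, -1.10 and -1.21). In methionine salvage, methylthioadenosine phosphorylase SI65_07055 had 74.7 ± 55.3 FPKM in EcCK and 155 ± 3.4 in EcRS, and the isomerase SI65_03054 had 23.4 ± 8.47 and 45.5 ± 7.24. Their log2 differences of 1.06 ± 0.45 and 0.96 ± 0.30 did not pass. Both were called higher with TMM factors, with the replicate number as a block (1.31 and 1.00), and without EcCK replicate 3, at 1.86 and 1.29, the latter also without EcRS replicate 2, at 1.07.

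Glutamate dehydrogenases link ammonium and glutamate. The NAD-dependent enzyme SI65_08728, which mainly breaks glutamate down, fell from 102, 196 and 262 to 16.1, 20.5 and 20.5 FPKM, with 107, 55.7 and 12.8 in EcSQ (log2 fold change -3.29 ± 0.39, adjusted p = 0.000114). The NADP-dependent enzyme SI65_03193, which mainly fixes ammonium into glutamate, had 189, 431 and 702 FPKM in EcCK, 610.0, 454 and 754 in EcRS and 674, 475 and 309.5 in EcSQ, and did not pass (log2 difference 0.46 ± 0.46, adjusted p = 0.393). It was called higher with TMM factors, at 1.38 (adjusted p = 0.0121). The groups of the NAD-dependent enzyme stood clear of each other for EcRS and EcCK, and those of the NADP-dependent enzyme overlapped. Of 8 tested aspartate aminotransferase genes SI65_01526 rose, from 5.19, 4.27 and 5.66 to 16.9, 14 and 13.9 FPKM (log2 fold change 1.56 ± 0.28, adjusted p = 0.00108; EcSQ 27.2, 18 and 9.35). SI65_04582 fell from 2.79, 2.01 and 2 to 0.204, 0.0838 and 0.0873 FPKM (log2 fold change -4.07 ± 0.50, adjusted p = 0.000131; EcSQ 2.34, 0.754 and 0). The mitochondrial enzyme that carries the name, SI65_00786, had 242 ± 79.6 FPKM in EcCK and 245 ± 36.3 in EcRS. Alanine aminotransferase SI65_07174 fell, with a log2 fold change of -1.18 ± 0.35 (adjusted p = 0.0158), which TMM factors did not call and which was lost without EcCK replicate 3, EcRS replicate 1 or EcRS replicate 2, at -0.68, -1.17 and -1.12.

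Degradation and side reactions held the largest changes of the set in both directions. Among 17 tested genes with the choline dehydrogenase number 2 rose and 10 fell, beside 12.8% and 47.6% of all genes, and with TMM factors 4 were higher and 7 lower, beside 26.4% and 31.4%. SI65_01490, a hypothetical protein, had 0.908, 0.606 and 0.216 FPKM in EcCK, 7.13, 8.4 and 8.48 in EcRS and 5.73, 5.44 and 10.4 in EcSQ, a log2 fold change of 3.78 ± 0.52 in EcRS (adjusted p = 0.000248). SI65_06218, described as glucose oxidase, was at 119.5, 66.1 and 40.4 FPKM in EcCK and 0.157, 0.163 and 0.067 in EcRS, with 16.3, 2.37 and 0.116 in EcSQ (log2 fold change -9.14 ± 0.62, adjusted p = 1.42e-05). SI65_10305 went from 45.5, 21.9 and 13.3 to 0.0637, 0.0808 and 0.116 FPKM, with 14.3, 0.916 and 0.288 in EcSQ (log2 fold change -8.20 ± 0.61, adjusted p = 1.65e-05). These enzymes belong to a broad family of flavin oxidoreductases, and the number alone does not name their substrates.

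The called genes of urea and sarcosine breakdown were all falls. All 5 genes with the urease number fell, 3 of them with TMM factors, against 47.6% of all genes, and 31.4% with those factors. SI65_01576, described as urease, had a log2 fold change of -3.24 ± 0.32, with 63.8 ± 16.6 FPKM in EcCK and 6.73 ± 1.58 in EcRS (mean ± SD, n = 3). SI65_00542, with the same description, had one of -1.94 ± 0.26, with 18.8 ± 4.05 and 4.92 ± 0.557 FPKM. Urea carboxylase SI65_08351, of the other route of urea breakdown, had 3.58 ± 2.94 FPKM in EcCK and was listed at 0 in EcRS replicates 1 and 3 and at 0.051 FPKM in replicate 2. Of 9 tested sarcosine oxidase numbers 7 fell, 6 with TMM factors, and none rose, though 1 was higher with TMM factors. Over all genes 47.6% fell and 12.8% rose, and with TMM factors 31.4% and 26.4%. The copper amine oxidase SI65_09748 had 10.9 ± 4.32 FPKM in EcCK, 0.167 ± 0.0883 in EcRS and 0.303 ± 0.267 in EcSQ, a log2 fold change of -6.00 ± 0.59 in EcRS.

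Arginase, which splits arginine into ornithine and urea, gave 1 rise. SI65_05912, a hypothetical protein of 528 coding bases, rose from 9.81, 17.5 and 30.4 to 79.4, 68.2 and 81.4 FPKM, with 100.1, 86.3 and 81.7 in EcSQ (log2 fold change 1.99 ± 0.40, adjusted p = 0.00203). SI65_05914, described as arginase and lying 3239 bases away, had 259, 173 and 171 FPKM in EcCK, 166, 142 and 138 in EcRS and 259, 157 and 25.6 in EcSQ (log2 difference -0.44 ± 0.26, adjusted p = 0.164). EcRS lay above EcCK in the first gene and just below it in the second. Cysteine dioxygenase SI65_01424, the most abundant gene of this list, had 246, 219 and 217 FPKM in EcCK, 143, 154 and 178 in EcRS and 164, 138 and 157 in EcSQ and did not pass (log2 difference -0.52 ± 0.23, adjusted p = 0.0667). Neighbouring genes with the number of thiosulfate sulfurtransferase, 713 bases apart, were called in opposite directions near the threshold. SI65_06095 went from 48.1, 31 and 31.9 to 17.8, 15.6 and 19.7 FPKM (log2 fold change -1.06 ± 0.26, adjusted p = 0.0064; EcSQ 31.3, 40.7 and 9.33) and SI65_06096 from 19.1, 18.5 and 45.9 to 54.9, 50.9 and 64.9 (log2 fold change 1.03 ± 0.38, adjusted p = 0.0362; EcSQ 91.1, 99.7 and 30.3). The fall was not called with TMM factors, nor without EcCK replicate 1 or EcRS replicate 2 (-0.83 and -0.98). The rise was lost without any 1 library except EcCK replicate 3, at 0.81 to 1.11. Another gene of that number, SI65_09951, had 7.78, 7.52 and 8.51 FPKM in EcCK, 3.85, 3.43 and 5.85 in EcRS and 17.7, 11.1 and 3.03 in EcSQ (log2 difference -0.86 ± 0.33, adjusted p = 0.0456), and was called lower without EcRS replicate 3, at -1.12.

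Ergothioneine, a sulfur compound made from histidine in fungi, and D-serine breakdown each had a gene that fell beside a gene of the same number that was not called. Of the Egt1 genes SI65_00931 fell, from 4.23, 8.27 and 5.41 to 0.887, 0.415 and 1.07 FPKM (log2 fold change -2.91 ± 0.47, adjusted p = 0.000604; EcSQ 5.57, 2.44 and 0.339), and SI65_04601 had 25.1, 11.4 and 6.84 FPKM in EcCK, 13.9, 15 and 11.1 in EcRS and 13.3, 15 and 5.75 in EcSQ (log2 difference -0.11 ± 0.43, adjusted p = 0.828). Of the Egt2 genes SI65_03967 fell, from 3.83, 4.89 and 7.37 to 0, 0.112 and 0.186 FPKM (log2 fold change -5.56 ± 0.82, adjusted p = 0.000351; EcSQ 11.8, 2.5 and 0.47). SI65_08438 did not pass, with 10.5, 10.4 and 12 FPKM in EcCK, 5.47, 6.42 and 6.94 in EcRS and 22.1, 13.6 and 1.14 in EcSQ (log2 difference -0.80 ± 0.27, adjusted p = 0.028). The D-serine dehydratase number is held by SI65_02357, which fell from 5.31, 5.95 and 38.2 to 0.873, 0.496 and 1.21 FPKM (log2 fold change -4.25 ± 0.84, adjusted p = 0.00193; EcSQ 31.7, 13.2 and 0.254), and by SI65_00049, with 5.46, 4.16 and 8.67 FPKM in EcCK, 3.24, 3.8 and 5.46 in EcRS and 10, 5.57 and 0.994 in EcSQ (log2 difference -0.55 ± 0.38, adjusted p = 0.226).

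Genes that share an enzyme number thus often differed, and this was counted over all 56 enzymes of synthesis. For 28 of them at least 2 genes were tested, and in 14 of the 28 the log2 fold changes spanned more than 3. Genes of 1 enzyme were called in opposite directions for 6 enzymes: 3-isopropylmalate dehydrogenase, DAHP synthase, cystathionine gamma-synthase, cysteine synthase, threonine synthase and tryptophan synthase. With TMM factors this held for 13. Over all genes 12.8% rose and 47.6% fell, and with TMM factors 26.4% and 31.4%. How often groups of unrelated genes would hold such spans or opposite calls was not counted. When the gene with the highest mean FPKM over the 9 libraries was taken for each enzyme, 15 of 56 rose and 8 fell, with a median of 0.25, and 29 were higher and 5 lower with TMM factors. Of the 55 other genes tested 4 rose and 26 fell, with a median of -0.94. These falls and this median were near those of all genes, 47.6% and -0.96. With TMM factors 15 of the 55 were higher and 19 lower, beside 26.4% and 31.4% of all genes. The mean that ranks the genes includes the libraries compared, so this split is a description.

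**Figure D4:**
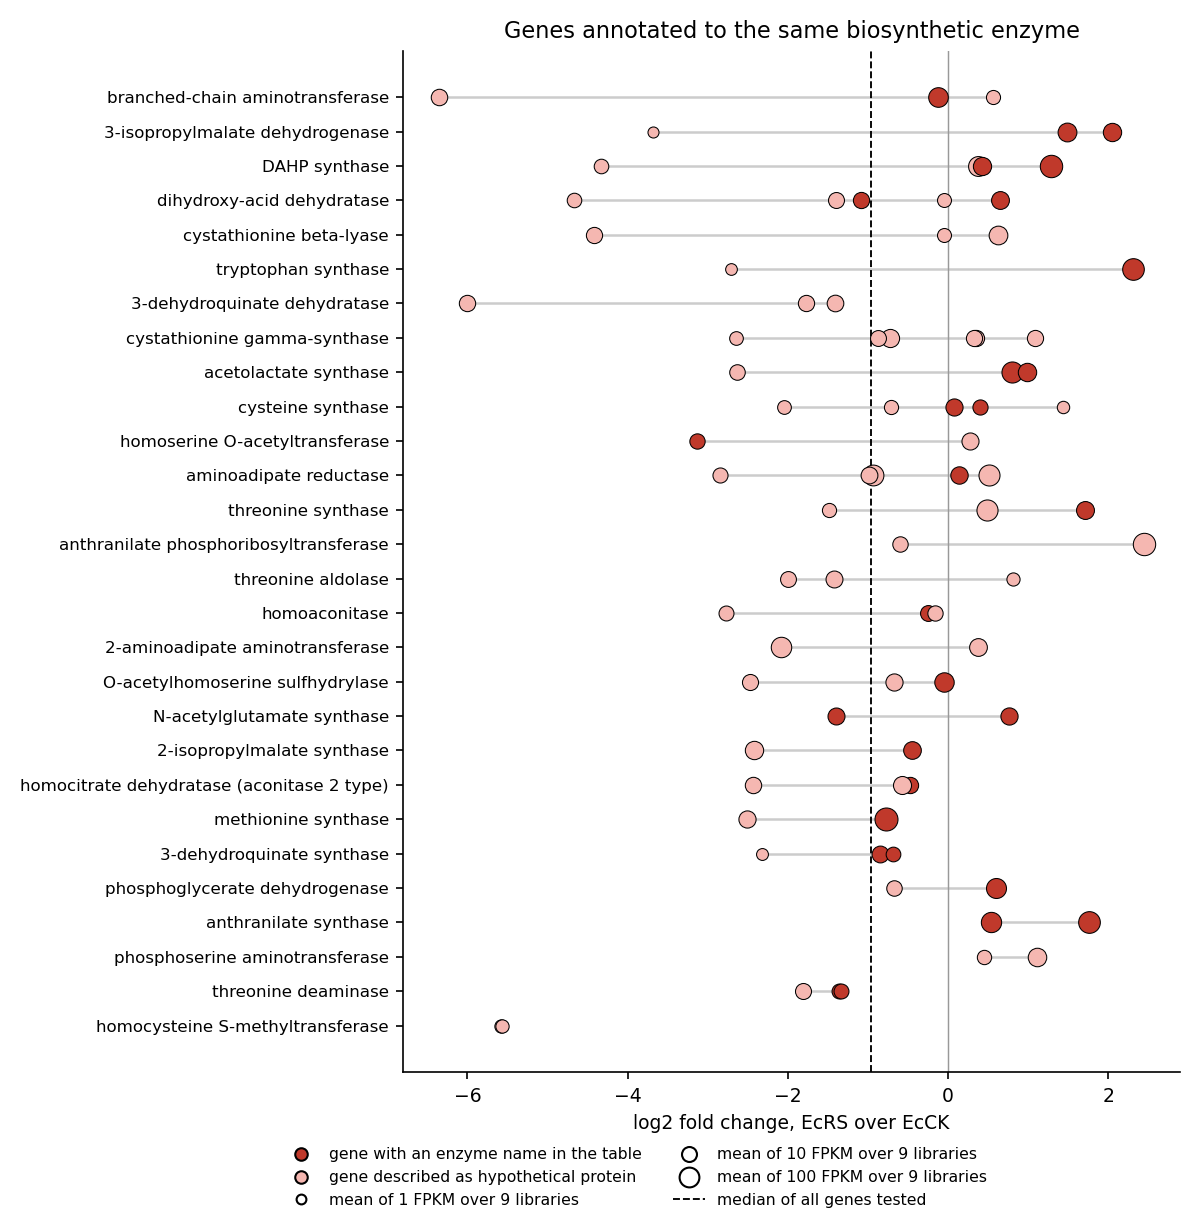
Log2 fold change of EcRS over EcCK on the x axis for the genes of the 28 synthesis enzymes with at least 2 tested genes, joined by a line within an enzyme; dark points are genes with an enzyme name in the table, pale points hypothetical proteins, and the area of a point grows with the mean FPKM over the 9 libraries. The widest span is that of branched-chain aminotransferase, from -6.36 to 0.56, and the points at the left ends are mostly pale.

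The genes of synthesis were also counted by their description in the table. Of 47 tested synthesis genes with an enzyme name 14 rose and 6 fell, with a median log2 fold change of 0.42. Of 64 described as hypothetical 5 rose and 28 fell, with a median of -0.91. With TMM factors the counts were 27 and 2 against 17 and 22. The median level of the named genes was 30.1 FPKM in EcCK and 45.7 in EcRS, and that of the hypothetical ones 17.6 and 6.29. Over all genes with a KEGG pathway 24.8% of 871 described genes rose and 28.8% fell, with a median log2 fold change of -0.0030, against 10.0% and 48.7% of 2252 hypothetical ones, with a median of -0.99.

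Of the genes of the set, 39 pairs lie within 10 kb of each other. In 3 of these pairs the neighbours were called in opposite directions. SI65_09762, the ketol-acid reductoisomerase, and SI65_09763, a hypothetical protein with the threonine deaminase number, lie 212 bases apart on the plus strand of contig 21. SI65_09763 fell, with 21.8 ± 12 FPKM in EcCK and 6.19 ± 1.37 in EcRS (log2 fold change -1.81 ± 0.42, adjusted p = 0.00457), beside the rise of 1.57, and its fall was not called with TMM factors. The others were the thiosulfate sulfurtransferase pair above and SI65_06471, numbered as 3-dehydroquinate dehydratase (log2 fold change -1.42, not called with TMM factors, nor without EcCK replicate 3, EcRS replicate 1 or EcRS replicate 3, at -0.82, -1.35 and -1.44), beside SI65_06473, numbered as cysteine synthase (1.43). SI65_03499, the phosphoserine aminotransferase number that rose, lies between the homoaconitase genes SI65_03498 and SI65_03500, which did not pass, with gaps of 636 and 182 bases. SI65_04401 and the sarcosine oxidase SI65_04402, 738 bases apart, had the near-equal falls of -3.68 and -3.66.

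On *P. notoginseng* roots few genes of the set were called. Of 205 tested in EcSQ against EcCK 4 rose and none fell, where 1.72% of 9160 genes rose and 1.87% fell. At an unadjusted p under 0.05 there were 16 higher and 9 lower, and the share of all genes at that p was not counted. DESeq2 called 30 and 16, against 13.9% and 11.3% of all genes. With TMM factors 9 were higher and 4 lower, against 4.71% and 4.9%. The 4 rises were tryptophan synthase SI65_08444 (3.21 ± 0.51, adjusted p = 0.0206), anthranilate phosphoribosyltransferase SI65_00259 (3.19 ± 0.62, adjusted p = 0.0312), 3-isopropylmalate dehydratase SI65_08087 (2.16 ± 0.50, adjusted p = 0.0498) and the choline dehydrogenase number SI65_01490 (3.63 ± 0.83, adjusted p = 0.0492). SI65_08087 was not called with TMM factors. In each of the 4 all EcSQ libraries stood above EcCK, as they did in 14.3% of all genes tested. These calls are near the limit of the test: SI65_00259 and SI65_01490 were each lost without any 1 library other than EcSQ replicate 3. SI65_08444 was lost without EcCK replicate 1, EcCK replicate 2 or EcSQ replicate 2 (3.16, 3.08 and 2.90), and SI65_08087 without any EcCK library or EcSQ replicate 2. For SI65_00259 the values without a library ran from 2.67 to 3.59, for SI65_01490 from 3.24 to 4.12, and for SI65_08087 from 1.93 to 2.36.

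The counts on this root changed when EcSQ replicate 3 was left out. Over 112 synthesis genes the median log2 ratio to the EcCK mean was 0.86 in EcSQ replicate 1, 0.51 in replicate 2 and -0.81 in replicate 3, while the EcRS libraries gave -0.31, -0.36 and -0.27. The ratio was not taken over all genes, so a shift of the whole library is not separated here. In EcSQ replicates 1 to 3, 9265, 8727 and 7440 genes had at least 1 FPKM. Without EcSQ replicate 3, 26 genes of the set rose and 5 fell, against 9.88% and 6.69% of all genes. All 5 falls were outside synthesis. Of 113 synthesis genes 20 rose, among them 7 branched-chain, 6 aromatic and 3 arginine genes. DAHP synthase SI65_07568 then gave 1.73 ± 0.41 (adjusted p = 0.0194), 3-isopropylmalate dehydrogenase B SI65_00111 1.90 ± 0.57 (adjusted p = 0.045) and acetylornithine aminotransferase SI65_08527 2.10 ± 0.38 (adjusted p = 0.00717). The dihydroxy-acid dehydratase number SI65_01223, which had 1.42 ± 0.945 FPKM in EcCK and 1.38 ± 0.314 in EcRS, stood at 22.5, 21 and 6.36 FPKM in EcSQ and gave 3.93 ± 0.60 without replicate 3 (adjusted p = 0.00352). With all libraries it was 3.54 ± 0.85 (adjusted p = 0.0545). The hypothetical copies that fell furthest in EcRS, SI65_03180 and SI65_07228 gave -1.56 ± 0.49 and -1.31 ± 0.54 without replicate 3 and were not called.

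**Figure D5:**
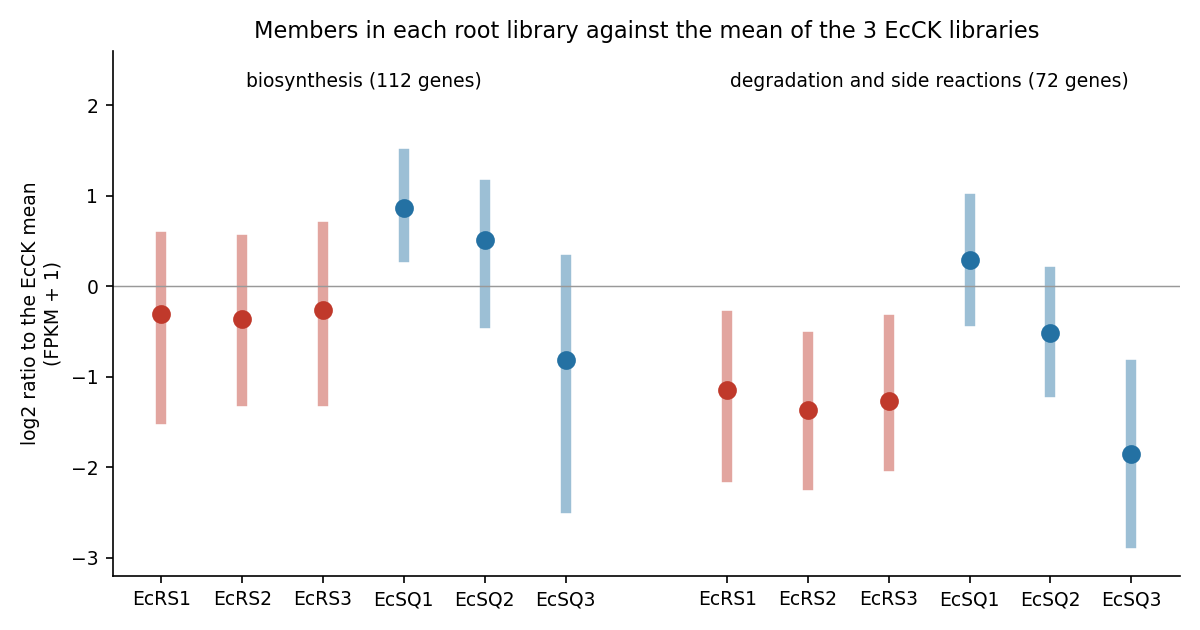
Median (points) and middle quartiles (bars) of the log2 ratio of FPKM + 1 to the mean of the 3 EcCK libraries, on the y axis, for each root library on the x axis, over 112 genes of synthesis and 72 of degradation and side reactions. EcSQ replicates 1 and 2 lie above 0 for synthesis, at 0.86 and 0.51, and EcSQ replicate 3 lies below all EcRS libraries in both panels, at -0.81 and -1.86.

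Between the roots no gene of the set was called. Of 194 genes tested in EcRS against EcSQ with edgeR none passed, where over all genes 0.0342% of 8784 genes did. At an unadjusted p under 0.05, 1 gene of the set was higher in EcRS and 41 were lower, and the share of all genes at that p was not counted. The median log2 fold change was -0.75 over the set and -0.84 over all genes tested, so lower values in EcRS were not particular to the set. DESeq2 called 8 higher and 17 lower, against 5.21% and 12.1% of all genes. Without EcSQ replicate 3, 1 of 198 genes was higher and 101 lower in EcRS, and 4.23% and 49.8% of all genes. The 61 synthesis genes that were lower among 112 tested included SI65_00259, at -1.14 ± 0.27 (adjusted p = 0.00284), but not SI65_08444, at -0.97 ± 0.31 (adjusted p = 0.0171). EcRS and EcSQ were compared with the same EcCK libraries, so their values against EcCK are given side by side and are not independent.

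The 3 regulators read for these pathways were not called higher in EcRS. Only their transcripts were read, and their activity was not measured. SI65_00302, which carries the KEGG number of Gcn4, had 1589, 1656 and 2055 FPKM in EcCK, 1109, 1507 and 1498 in EcRS and 904, 1500.0 and 3058 in EcSQ, and its log2 difference of -0.37 ± 0.31 in EcRS did not pass (adjusted p = 0.319). SI65_02975, with the number of the kinase Gcn2 that acts before it in yeast, fell by 1.64 ± 0.37 on the log2 scale (adjusted p = 0.00411), a fall not called with TMM factors (-0.73 ± 0.26, adjusted p = 0.0354). The nitrogen regulator areA, SI65_10199, had a log2 difference of -0.53 ± 0.36 (adjusted p = 0.218). Genes of spores and conidiation were read as well, since the sources differ on the EcCK material. Of 153 tested of a list of 160, 19 rose and 50 fell in EcRS, where 12.8% and 47.6% of all genes did, with a median log2 fold change of -0.31 against -0.96 over all genes. With TMM factors 56 were higher and 29 lower, against 26.4% and 31.4%. The summed FPKM of the 160 ran from 12720 to 21150 in EcCK, from 23540 to 25910 in EcRS and from 22660 to 37130 in EcSQ. The conidiation regulator brlA, SI65_02778, had 8.99, 15.0 and 34.6 FPKM in EcCK and 23.4, 26.3 and 35.2 in EcRS (log2 difference 0.53 ± 0.46, adjusted p = 0.32), and with TMM factors it was called higher, at 1.47 ± 0.36 (adjusted p = 0.00732). In abaA, SI65_01598, a fall of 1.51 ± 0.46 on the log2 scale (adjusted p = 0.0165) was not called with TMM factors, at -0.66 ± 0.38 (adjusted p = 0.16). The part of growth stage in the results on amino acid genes was not tested.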

How the data were processed

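RNA of 9 libraries was sequenced, 3 each of EcCK, EcRS and EcSQ. The authors deposited 1 table with FPKM and whole-number estimated counts per gene. Aligners and assemblers in the submitters' processing notes are Bowtie 0.12.2, HISAT2 2.0 and StringTie 1.3.0, with no role stated, and the annotation release is not given in the sources used here. The estimated counts, as deposited, were derived from coverage: within a library the count divided by FPKM and length is constant, and the per-million base of the FPKM was recovered from it over genes with at least 200 counts. A read pair gives several units, so totals of 45891944 to 61627866 overstate the number of pairs and p-values may be too small. Listed lengths are coding lengths.

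Rounded counts were tested with the quasi-likelihood test of edgeR 4.0.16 under R 4.3.3, with the per-million base as library size, in the 2 groups compared, over all genes averaging at least 1 FPKM in them, and adjusted by Benjamini and Hochberg over all genes tested. Calls required an adjusted p no higher than 0.05 and a fold of at least 2. The procedure was tested on simulated data with known changes. Alternatives were TMM factors, DESeq2 1.42.0, limma 3.58.1 on log2(FPKM + 0.1, 1 or 5), all 9 libraries in 1 fit, counts divided by 4, other filters, no fold threshold, a block for the replicate number and each library left out. Correlations of deviations from the group means between same-numbered libraries were 0.12, 0.20 and 0.29 for EcRS and EcCK. Between libraries of different numbers they ran from -0.28 to 0.20, so these values do not establish pairs. The main fit is unpaired, and the blocked fit gave 27 rises and 84 falls. The plots were drawn with matplotlib 3.10.9.

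Genes were assigned to lists by enzyme number, 8 numbers being added after the annotation was seen. Full values are given for the 2 largest called rises and falls and the highest mean level of each list, for 2 to 4 tested genes of 1 number whose calls differ, and for the 4 largest called changes on each side in the other comparisons. Other genes named, and the regulators, were chosen after their values were seen. The members and lists were chosen with earlier results of these data known.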

Additional observations from a re-analysis of the deposited data

How the results depend on the processing

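In EcRS against EcCK the 24 rises and 87 falls, 111 calls in all, became 63 rises with DESeq2 and 60 with TMM factors, 72 calls with 14 rises when all 9 libraries shared 1 fit, 69 calls with 50 falls with limma on log2(FPKM + 5), and 57 falls among genes averaging at least 5 FPKM. Leaving out a library gave 101 to 113 calls, 18 to 34 rises and 79 to 88 falls. In EcSQ against EcCK the 4 rises became 46 calls (30 rises, 16 falls) with DESeq2, 13 (9 and 4) with TMM factors, 16 (13 and 3) with all 9 libraries in 1 fit, 1 fall beside the rises with counts divided by 4 or limma on log2(FPKM + 0.1), 8 calls with 2 falls on log2(FPKM + 1) and 10 (7 and 3) on log2(FPKM + 5). The calls ran from 0, without EcCK replicate 1, EcCK replicate 2 or EcSQ replicate 2, to 31, without EcSQ replicate 3, with 0 to 26 rises and 0 to 5 falls. In EcRS against EcSQ the count of 0 became 25 (8 and 17) with DESeq2, 19 (1 and 18) with all 9 libraries in 1 fit, and 0 to 102, with 0 to 1 rises and 0 to 101 falls, without a library. The cause of these shifts was not tested.

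With the replicate number as a block, 0 calls and 0 rises were left in EcSQ against EcCK and 0 in EcRS against EcSQ. Same-numbered libraries correlated there at -0.05, -0.04 and -0.11, and at 0.21, -0.17 and -0.11, so that they share only a number. In EcRS against EcCK the block changed the calls of SI65_02810, SI65_03054, SI65_04128 and SI65_07055 among the 117 genes named and tested. Of those 117 genes 32 lost a call and 24 gained one under at least 1 alternative other than a library left out, and none called in either fit changed direction. The 3 libraries a group, the coverage-derived counts and the gap between the labels and the methods on the EcCK material limit all of these results.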

Other observations

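On contig 1, a total of 8 genes of the set formed 4 pairs with the same coding length and number of exons, on opposite strands and in mirrored order: SI65_01820 and SI65_02060 (serine dehydratase by their number), SI65_01829 and SI65_02052 (threonine deaminase), SI65_01905 and SI65_01977 (homocysteine S-methyltransferase), and SI65_01932 and SI65_01949 (dihydroxy-acid dehydratase, under 1 FPKM in the mean). The start of the first gene and the end of the second added up to between 10582452 and 10582627 in all 4 pairs, a range of 175 bases, so that each pair lay around a midpoint near base 5291308. Where a library held at least 1 FPKM, the values of a pair differed by at most 3.99%. Sequences of these genes were not available, so whether their reads can be assigned to either gene was not tested. Both genes of a pair are counted in the numbers above.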
